A study of Mus musculus with 6 samples.

Results

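The B cell and plasma cell genes described here are 9 genes that mark B lymphocytes or the antibody-secreting plasma cells they give rise to: Cd79a, Cd79b, Ms4a1, Cd22, Blk, Pax5, Ebf1, Jchain and Mzb1. They were taken by symbol from the deposited gene counts, and all 9 were found among the 48440 genes of the table. RNA was sequenced from the murine subcutaneous tissue entangled with cartilage engineered from rabbit bone marrow stem cells, which had been wrapped in an electrospun membrane of polycaprolactone (PCL) and collagen and had lain under the skin of BALB/c nude mice for 12 weeks. The membrane held axitinib, an inhibitor of VEGF receptor kinases, at 0% or 3% of the weight of PCL and collagen, giving 3 samples of 0%-Axitinib and 3 of 3%-Axitinib; both groups carried membrane and rabbit cartilage. The sample labels call the controls untreated, and were read here as 0%-Axitinib, since the design text of the series names only the 0% and 3% groups. The mice were male and 6 to 8 weeks old when bought, and each received a pair of constructs of 1 group, but the labels name no mouse, so n counts samples and the p-values measure the spread between samples. Nude mice lack a thymus and so most T cells, while their B cells still form in the bone marrow.

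B cells carry an antigen receptor made of membrane antibody and a signalling pair of chains, and kinases and inhibitory coreceptors set how strongly it fires. Transcription factors switch on the B cell programme and hold it, and most of that programme is shut down again when an activated B cell turns into a plasma cell, which devotes its secretory pathway to antibody. B cells are sparse in resting skin and fat and can gather, with plasma cells, in tissue around an implant.

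Reads on genes numbered 17761968, 16716411 and 18005908 in 0%-Axitinib replicates 1, 2 and 3, and 9225518, 11686084 and 18403795 in 3%-Axitinib replicates 1, 2 and 3. Levels are given as CPM (read counts scaled to the library's reads on genes, with TMM factors), always in that order of samples. A floor of 3 counts equals 0.156, 0.174 and 0.162 CPM in the controls, and for 3%-Axitinib 0.329, 0.273 and 0.173 CPM. Floors and the intervals named counting intervals cover counting error only. The share of reads that mapped nowhere was 8.08% ± 5.99 (SD, n = 3) in 0%-Axitinib and 31.5% ± 15.9 (SD, n = 3) in 3%-Axitinib, and its part in the results was not tested.

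The control library 0%-Axitinib replicate 3 stood apart. Across genes, its log2 CPM correlated with replicates 1 and 2 at Spearman 0.891 and 0.893, against 0.978 between replicates 1 and 2 and 0.945 to 0.978 within 3%-Axitinib. The 11 neutrophil precursor genes, led by S100a9, summed to 38.0, 45.1 and 37533 CPM in 0%-Axitinib and to 167, 106 and 45.5 CPM in 3%-Axitinib. Erythroid genes, led by the globin Hbb-bs, summed to 445, 394 and 22527 CPM in 0%-Axitinib and to 168, 379.9 and 533 CPM in 3%-Axitinib. The V(D)J recombination genes Rag1 and Rag2 had 65 and 15 counts in 0%-Axitinib replicate 3 and 0 in each of the other 5 samples, as did the precursor genes Dntt with 110 counts and Igll1 with 85. Those 4 genes are from a list of 12 B cell precursor genes, led by Cd93, that summed to 438, 763.9 and 249.4 CPM in 0%-Axitinib and to 267, 298 and 308 CPM in 3%-Axitinib, and Cd93 and the cytokine receptor gene Il7r were lowest in replicate 3 among the controls (232, 353 and 115 CPM, and 160.1, 358 and 44.1 CPM). Neutrophil precursor and erythroid genes and some B cell precursor genes were thus high in 1 of the 3 controls, and their part in the results was not tested. Whether it is the tissue that its label gives was not tested either, and that bears on the meaning of every fold change that includes it. Each member's fold change or pooled ratio, and each list's count, is therefore given with and without that library.

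Of the 9 genes, 8 passed the filter on low counts, and 7 of these were lower in 3%-Axitinib by the study's criterion (1.5-fold or more, with p not adjusted and 0.05 or less), a call made for 11.7% of all 15257 genes tested. Without 0%-Axitinib replicate 3 the count was 6 of 8, against 13.7% of all 15690 genes tested. Only 2 members, Cd22 and Ebf1, held at least 10 counts in every sample, and Cd22 was the 1 called lower there (1570 of all 13035 genes). The other members tested had low counts in 3%-Axitinib and passed the filter through their control counts. Little but a lower call was open to them, so the shares of all genes are not a like background. All 3%-Axitinib values were below all control values in 6 of the 8, as in 16.6% of all genes tested, and also in Pax5, the member the filter removed. With edgeR 0 of the 8 had an adjusted p of at most 0.05 (0.00655% of all genes), 7 passed 0.05 before adjustment (as did 3585 of all 15257 genes), and limma-voom also gave 0 adjusted calls. DESeq2 gave 5 adjusted calls, where 6.91% of all genes were called lower. The edgeR fit without a filter gave 1 of 9, Jchain, where 0.0336% of all 26823 genes were called lower. Without 0%-Axitinib replicate 3 edgeR gave 3 adjusted calls, Ms4a1, Cd22 and Jchain, where 3.89% of all genes were lower with an adjusted p of at most 0.05. The 9 genes summed to 113, 194 and 510.2 CPM in 0%-Axitinib and to 61.8, 66.4 and 61.1 CPM in 3%-Axitinib. In tissue RNA, fewer cells of a type and less RNA per cell cannot be told apart.

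The median log2 fold change of the 8 genes tested was -5.09 beside -0.03 over all genes, and -2.29 beside 0.02 without 0%-Axitinib replicate 3. With Ms4a1 and Blk set at the bounds that their near absence in 3%-Axitinib allows (-4.44 and -3.96), the median was -4.35. Over all genes, 1785 were lower and 1456 higher by the criterion, 55.1% of the calls being lower; scaling by total counts moved the median of all genes to -0.16 and that share to 70.9%. Leaving out 3%-Axitinib replicate 3 left 4 of the 8 genes lower by the criterion (8.43% of all genes), with Cd79a (-5.81), Cd79b (-3.84) and Blk (-4.63) no longer past the p threshold (0.0539, 0.0711 and 0.0513). limma-voom left 3 (9.73% of all genes), without Cd79a (-3.61), Cd79b (-3.03), Mzb1 (-3.82) and Blk (-4.03). The spread within 0%-Axitinib was wide for the genes that replicate 3 dominates, so the sizes of their fold changes rest largely on that library.

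**Figure D1:**
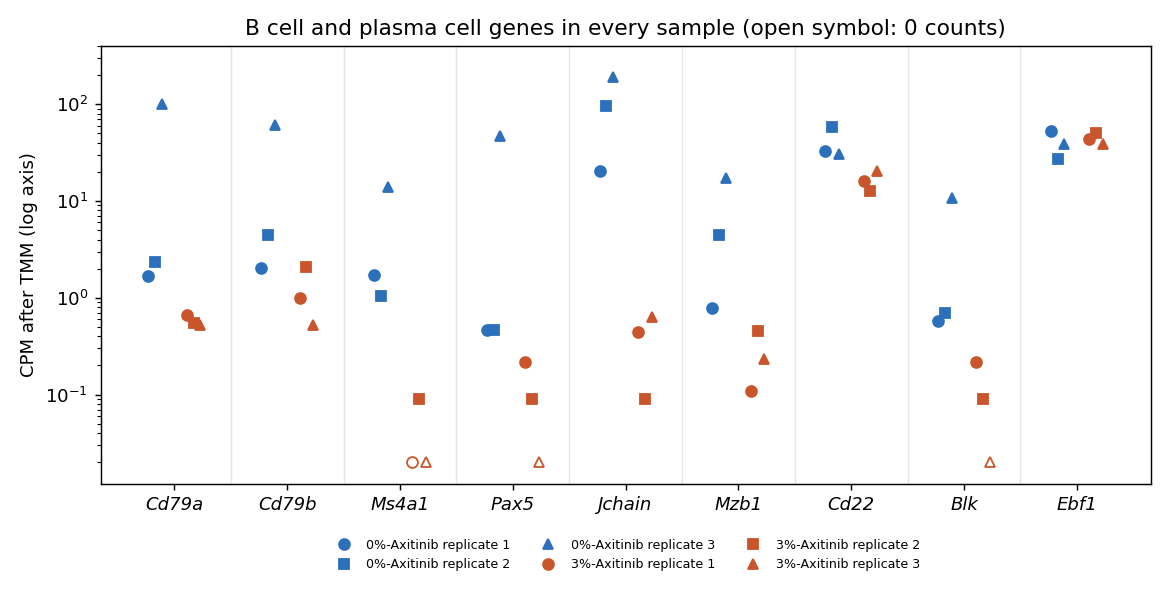
CPM of the 9 genes in each of the 6 samples on a log axis, open symbols marking 0 counts. The 0%-Axitinib replicate 3 sample is far above the others for Cd79a (100.4 CPM) and Pax5 (47.3 CPM), and the groups overlap for Cd79b and Ebf1.

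Cd79a and Cd79b encode the signalling chains of the B cell receptor. Cd79a was at 1.67, 2.33 and 100.4 CPM in 0%-Axitinib and at 0.658, 0.545 and 0.520 CPM in 3%-Axitinib. The control replicate 3 was 50.3 times the mean of the other controls, and all 3%-Axitinib samples lay below all controls. The log2 fold change was -5.92 (SE 1.79; edgeR adjusted p = 0.131), lower in 3 of 3 samples, and -1.80 (SE 0.45) without that library, so that 72 pooled counts in the other controls stood against 21 in 3%-Axitinib. Scaled to library size this was a ratio of 3.53 (95% counting interval 2.14 to 6.04). Cd79b was at 2.03, 4.42 and 61.5 CPM in 0%-Axitinib and at 0.987, 2.09 and 0.520 CPM in 3%-Axitinib. The groups overlapped, 3%-Axitinib replicate 2 standing above 0%-Axitinib replicate 1. Its log2 fold change was -4.26 (SE 1.39; edgeR adjusted p = 0.143) and -1.45 (SE 0.67) without 0%-Axitinib replicate 3, where it missed the criterion (unadjusted p = 0.0725), as it did without 3%-Axitinib replicate 1 (0.0597) and without 3%-Axitinib replicate 3 (0.0711).

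Ms4a1 encodes CD20, a membrane protein of B cells that plasma cells lose. It was at 1.72, 1.05 and 14.1 CPM in 0%-Axitinib and at 0, 0.0908 and 0 CPM in 3%-Axitinib. All controls had reads, replicate 3 the most, and in 3%-Axitinib a single read was found in the 3 samples. The ratio of 0%-Axitinib to 3%-Axitinib from pooled counts, 311 against 1, was 212 (95% counting interval 37.8 to 8410), and 52.5 (9.001 to 2112) without replicate 3, wide because of that 1 read. The fitted log2 fold change was -7.31 (SE 1.61; edgeR adjusted p = 0.0972) and -5.29 (SE 0.97) without it. Cd22, an inhibitory Siglec of B cells, was at 32.6, 58.3 and 30.8 CPM in 0%-Axitinib and at 16.0, 12.5 and 20.3 CPM in 3%-Axitinib. The control replicate 3 was here the lowest of its group, at 0.678 times the mean of the others, and the groups did not overlap. Its log2 fold change was -1.31 (SE 0.33; edgeR adjusted p = 0.1), lower in 3 of 3 samples, and -1.48 (SE 0.31) without 0%-Axitinib replicate 3.

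Blk is a Src-family kinase of B cells that acts near the receptor. It was at 0.573, 0.698 and 10.8 CPM in 0%-Axitinib and at 0.219, 0.0908 and 0 CPM in 3%-Axitinib. Replicate 3 was 17.0 times the mean of the other controls and the groups did not overlap, but 3%-Axitinib held only 3 reads in all. The pooled ratio of 222 to 3 counts was 50.5 (95% counting interval 17.1 to 247), and without 0%-Axitinib replicate 3 it was 7.89 (2.38 to 41.0). Its log2 fold change was -5.41 (SE 1.65; edgeR adjusted p = 0.132) and -2.78 (SE 0.99) without that library.

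Pax5, the transcription factor that commits cells to the B lineage, and Ebf1, which acts with it early in B cell development, differed from each other. Pax5 was at 0.468, 0.465 and 47.3 CPM in 0%-Axitinib and at 0.219, 0.0908 and 0 CPM in 3%-Axitinib. The control replicate 3 was 101 times the mean of the other controls, which had 9 and 8 reads, and the groups did not overlap. The filter removed Pax5, and in the fit without a filter its log2 fold change was -7.40 (SE 2.03; edgeR adjusted p = 0.123). Its pooled ratio of 891 to 3 counts was 203 (95% counting interval 69.1 to 985), and without replicate 3 it was 5.83 (1.69 to 31.0). Ebf1 was at 52.9, 27.2 and 38.7 CPM in 0%-Axitinib and at 43.2, 50.4 and 38.9 CPM in 3%-Axitinib. The groups overlapped throughout, with replicate 3 near the middle of the controls. Ebf1 had a log2 fold change of 0.16 (95% interval -0.48 to 0.80; edgeR adjusted p = 0.751) and of 0.14 (SE 0.30) without replicate 3. Ebf1 is also used by fat and stromal cells, in which other EBF genes take part.

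Jchain links antibody monomers into pentamers and dimers, and Mzb1 is an endoplasmic reticulum chaperone of antibody-making cells. Jchain was at 20.2, 95.3 and 189.5 CPM in 0%-Axitinib and at 0.439, 0.0908 and 0.635 CPM in 3%-Axitinib. All controls were high, replicate 1 least, and the groups lay far apart, also without replicate 3, which was 3.28 times the mean of the others. The log2 fold change was -7.92 (SE 1.06; edgeR adjusted p = 0.0965, or 0.0437 without a filter, the unadjusted p over all fits running from 4.45e-21 to 0.00725), lower in 3 of 3 samples, and -7.09 (SE 0.87) without that library. Mzb1 was at 0.781, 4.48 and 17.1 CPM in 0%-Axitinib and at 0.110, 0.454 and 0.231 CPM in 3%-Axitinib. The groups did not overlap, and replicate 3 was 6.51 times the mean of the other controls. Mzb1 had a log2 fold change of -4.76 (SE 1.21; edgeR adjusted p = 0.104) and of -3.26 (SE 0.91) without replicate 3. In the annotation 695 of its 1215 exon bases also lie in exons of Spata24 on the same strand. Spata24 had counts of its own, 25, 28 and 122 in 0%-Axitinib and 51, 70 and 63 in 3%-Axitinib, its 3%-Axitinib counts all above those of control replicates 1 and 2.

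Per base of exon, as RPKM (CPM divided by exon length in kilobases), the order of the genes differed between groups. In 0%-Axitinib the mean RPKM was highest for Jchain at 40.4 ± 33.7 (SD, n = 3), followed by Cd79a at 23.9 ± 39.0 and Cd79b at 15.8 ± 23.5. The controls' spread exceeded each of these steps, since 68.9 of Cd79a's RPKM came in replicate 3 against 1.14 and 1.60 in the others. In 3%-Axitinib the highest mean RPKM was that of Ebf1 at 4.53 ± 0.599 (SD, n = 3), followed by Cd22 at 3.23 ± 0.773 and Cd79b at 0.838 ± 0.563. Ms4a1 had the lowest mean RPKM in both groups, at 0.908 ± 1.19 and 0.00489 ± 0.00848 (SD, n = 3). In 3%-Axitinib that place rests on 1 pooled read of Ms4a1 against 3 of Pax5, both below the floor of 3 counts in every sample. Without replicate 3, the controls' mean RPKM was 23.0 for Jchain, 9.02 for Cd22, 4.10 for Ebf1, 2.25 for Cd79b, 2.16 for Mzb1 and 1.37 for Cd79a, and Pax5 was then the lowest at 0.0527.

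Ptprc, the pan-leukocyte phosphatase CD45, was itself lower in 3%-Axitinib, at 215, 350.0 and 362 CPM in 0%-Axitinib and 79.5, 81.5 and 97.9 CPM in 3%-Axitinib (log2 fold change -1.84, SE 0.27; edgeR adjusted p = 0.0965, lower in 3 of 3 samples), and had -1.71 without 0%-Axitinib replicate 3. Per 1000 Ptprc reads, Jchain stood at 94.4, 272 and 523 reads in 0%-Axitinib and at 5.52, 1.11 and 6.49 in 3%-Axitinib. Jchain was thus far below all controls on this scale too. Ms4a1 stood at 8.01, 2.99 and 38.9 reads per 1000 Ptprc reads in 0%-Axitinib and 0, 1.11 and 0 in 3%-Axitinib. It was also below all controls, but 0%-Axitinib replicate 2 (2.99) and 3%-Axitinib replicate 2 (1.11, from 1 read) lay close. Cd22 stood at 152, 167 and 85.1 reads per 1000 Ptprc reads in 0%-Axitinib and at 201, 154 and 208 in 3%-Axitinib. These overlapped, with no 3%-Axitinib sample below the lowest control. Cd79a stood at 7.76, 6.65 and 277 reads per 1000 Ptprc reads in 0%-Axitinib and at 8.28, 6.69 and 5.31 in 3%-Axitinib. Outside 0%-Axitinib replicate 3 the Cd79a values of both groups lay side by side. Ebf1 stood at 246, 77.8 and 107 reads per 1000 Ptprc reads in 0%-Axitinib and at 543, 619 and 397 in 3%-Axitinib, higher in every 3%-Axitinib sample. The groups (0%-Axitinib against 3%-Axitinib) overlapped for Mzb1 (3.64, 12.8 and 47.3 against 1.38, 5.57 and 2.36). They also did for Cd79b (9.46, 12.6 and 170 against 12.4, 25.6 and 5.31). Overlap was seen too for Blk (2.67, 1.99 and 29.8 against 2.76, 1.11 and 0) and Pax5 (2.18, 1.33 and 131 against 2.76, 1.11 and 0). Per Ptprc read, Jchain and Ms4a1 were thus the only ones of the 9 members below all controls. The share of all genes below all controls on this scale was not computed (in CPM it was 16.6% of genes tested), so the count itself is not read as a result. These ratios depend on the choice of Ptprc as reference, which was lower by more than most pan-leukocyte genes (list median -1.06, and -0.38 without 0%-Axitinib replicate 3; Laptm5 -0.50 and -0.59).

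**Figure D2:**
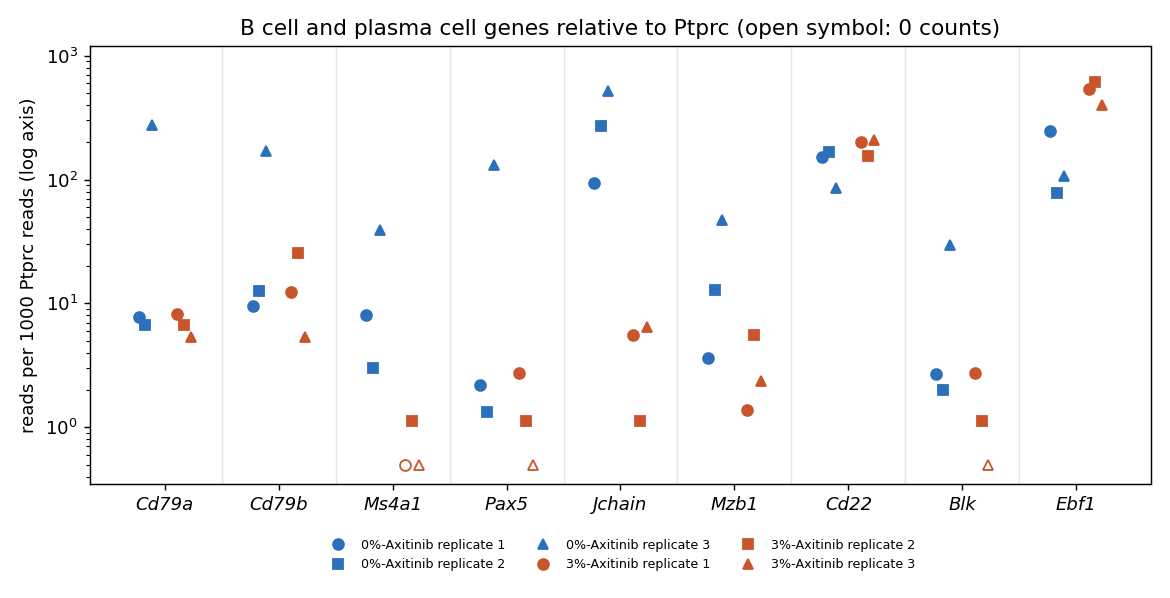
Reads of each of the 9 genes per 1000 reads of Ptprc in each of the 6 samples on a log axis, open symbols marking 0 counts. Jchain is lower in all 3%-Axitinib samples (1.11 to 6.49) than in all controls, while Cd22 overlaps between the groups.

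The counts of lower genes in this and the other lists stand beside 11.7% of all genes, and 13.7% without 0%-Axitinib replicate 3. In every list, genes with few counts in 3%-Axitinib passed the filter through the controls. Around the members, 14 of the 18 tested genes of B cell receptor signalling (20 listed) were lower in 3%-Axitinib by the criterion and 9 without 0%-Axitinib replicate 3, with a median log2 fold change of -0.92. They included Prkcb, a kinase below the receptor (-1.34, SE 0.30), and the protease Malt1 (-1.44, SE 0.35), with -1.19 and -1.71 without that library, while the inhibitory Fc receptor Fcgr2b was the most abundant and had -0.07 (SE 0.35). Mature B cell genes were lower in 10 of 15 tested (21 listed) and in 7 without that library, among them the class II transactivator Ciita (-2.99, SE 0.43), the antibody gene coactivator Pou2af1 (-5.74, SE 1.15) and H2-Ob (-5.42, SE 1.34). Without replicate 3 these had -2.80, -4.31 and -3.31. Cd37, the most abundant of them, had -0.21 (SE 0.25). Of 12 precursor genes 4 were tested and 1, the cytokine receptor Flt3, was lower (-2.73, SE 0.63), with -1.95 without replicate 3, where the count was 3.

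All 6 tested immunoglobulin constant genes (12 listed) were lower, and 5 were without replicate 3. Of these, Iglc1 and Iglc2 had 0 counts in every 3%-Axitinib sample and passed the filter through the controls. Among those not tested, Ighg2b, Ighg2c and Ighg3 had only 1, 3 and 1 counts in 0%-Axitinib replicate 1. Igha, also not tested, had 1, 335 and 3106 counts in 0%-Axitinib and 5, 2 and 6 in 3%-Axitinib, so its groups overlapped. Ighg1 was at 38.6, 469.6 and 291 CPM in 0%-Axitinib and at 0.658, 0 and 0.693 CPM in 3%-Axitinib. Its groups lay far apart, controls all high, with a log2 fold change of -9.14 (SE 1.30; edgeR adjusted p = 0.0965), and -9.06 without replicate 3. Ighm, the heavy chain of IgM and the most abundant of them, was at 128, 202 and 762 CPM in 0%-Axitinib and at 36.8, 25.3 and 51.2 CPM in 3%-Axitinib. It kept reads in every 3%-Axitinib sample, below all controls (-3.27, SE 0.72, and -2.13 without replicate 3). The light chain gene Igkc had -7.96 (SE 1.30), and -7.25 without it. Among 18 plasma cell and secretion genes, all tested, 8 were lower and 5 without replicate 3, with a median log2 fold change of -0.63. Hsp90b1, a chaperone of the secretory pathway and the most abundant, had -1.03 (SE 0.24), the surface receptor Slamf7 -2.20 (SE 0.57) and Edem1, which helps clear misfolded glycoproteins, -0.88 (SE 0.23). Without replicate 3 these had -1.14, -2.50 and -0.86. The plasma cell regulator Prdm1 was lower (-1.70, SE 0.53, and -1.65 without replicate 3). The other 10 genes missed the criterion: the regulators Xbp1 (0.27, SE 0.22) and Irf4 (-0.26, SE 0.56), the surface markers Sdc1 (-0.21, SE 0.34) and Tnfrsf17 (-0.59, SE 0.52), Txndc5 (0.37, SE 0.24), Fkbp11 (0.85, SE 0.55), Derl3 (-1.36, unadjusted p = 0.0532), Sel1l (-0.67, unadjusted p = 0.0545, and lower by the criterion at -0.92 without replicate 3), Ell2 (-0.51) and Pdia4 (-0.29). Prdm1 and these were picked after their values were seen.

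Germinal centre genes were lower in 2 of 6 tested (9 listed), Gcsam (-2.60, SE 0.84) and Mybl1 (-1.28, SE 0.48), while Basp1 was the most abundant (-0.30, SE 0.45), Gcnt3 had 0 counts in every sample and Rgs13 at most 3. Without replicate 3 Gcsam missed the criterion (-1.53, unadjusted p = 0.0572), and the 2 lower genes were Mybl1 (-1.37) and Bcl6 (-0.62). B cell attracting and survival ligands were lower in 3 of 9 tested (16 listed), the stem cell factor gene Kitl (-1.71, SE 0.18), Ltb (-4.42, SE 1.56) and the chemokine gene Cxcl12 (-1.40, SE 0.51), and in 3 without replicate 3. Without it Kitl had -1.77 and Cxcl12 -0.62, while Ltb missed the criterion (-0.64, unadjusted p = 0.224). Of the 8 Ebf1 relatives and cofactors 1, Ebf3, was lower (-1.04, SE 0.34, and -0.76 without replicate 3, again 1 of 8), and the list's median was -0.07.

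Other cell types that the tissue could hold moved to different extents. T cell genes, led by Lat, were lower in 8 of 10 tested (15 listed) and in 5 without replicate 3, and summed to 31.6, 76.6 and 383 CPM in 0%-Axitinib and to 11.4, 14.99 and 20.5 CPM in 3%-Axitinib. NK cell genes, led by Gzma, were lower in 8 of 8 tested (9 listed) and in 5 without replicate 3, and summed to 12.0, 32.6 and 94.5 CPM against 3.40, 4.18 and 6.99 CPM. Macrophage genes, led by Lyz2, were lower in 0 of 11 tested by edgeR (12 listed) and in 1 without replicate 3, and summed to 11581, 12043 and 8641 CPM against 8330.4, 10737 and 16794 CPM. Plasmacytoid dendritic cell genes, led by Bst2, were lower in 1 of 7 tested, Siglech (-2.95, SE 1.09), and higher in 1, Cox6a2, which muscle also expresses (5.11, SE 1.33). Without replicate 3 Siglech missed the criterion (-1.08, unadjusted p = 0.165), Cox6a2 had 5.84, and the 1 lower gene was Lair1 (-0.62). The 10 pan-leukocyte genes, led by Laptm5, were lower in 2, Ptprc and Lcp1 (-0.99, SE 0.31, and -0.91 without replicate 3), and in 3 without replicate 3.

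Neutrophil precursor genes were lower in 7 of 9 tested, with Ltf at -10.77 (SE 3.38), and without 0%-Axitinib replicate 3 lower in 1, Ltf at -1.52, and higher in 2. Erythroid genes were lower in 5 of 5 tested, with Hbb-bt at -5.16 (SE 1.69), and in 1 without that library, Hbb-bt at -0.94. Lymph node stroma genes were lower and higher in 0 of 4 tested by edgeR, with and without it; Cxcl13, which attracts B cells, led them at 277, 130.02 and 62.7 CPM in 0%-Axitinib and 603, 95.4 and 354 CPM in 3%-Axitinib. Adipocyte genes, led by Lpl, were lower in 3 of 10, Lep (-5.58, SE 0.97), Fabp4 (-1.22, SE 0.25) and Pparg (-1.40, SE 0.29), and pericyte genes, led by Anpep, in 5 of 8, Rgs5 among them (-2.22, SE 0.42). Without replicate 3 the counts were 4 of 10 and 6 of 8, with Lep at -5.77, Fabp4 at -1.06, Pparg at -1.52 and Rgs5 at -2.06. Skeletal muscle genes, led by Acta1, were higher in 16 of 18 tested, in 12 of 19 without replicate 3, and summed to 184, 24.3 and 27.7 CPM in 0%-Axitinib and 16876, 32.4 and 9461 CPM in 3%-Axitinib. The muscle values were high in 3%-Axitinib replicates 1 and 3 and not in replicate 2. The part of these cell types in the results for the B cell genes was not tested.

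**Figure D3:**
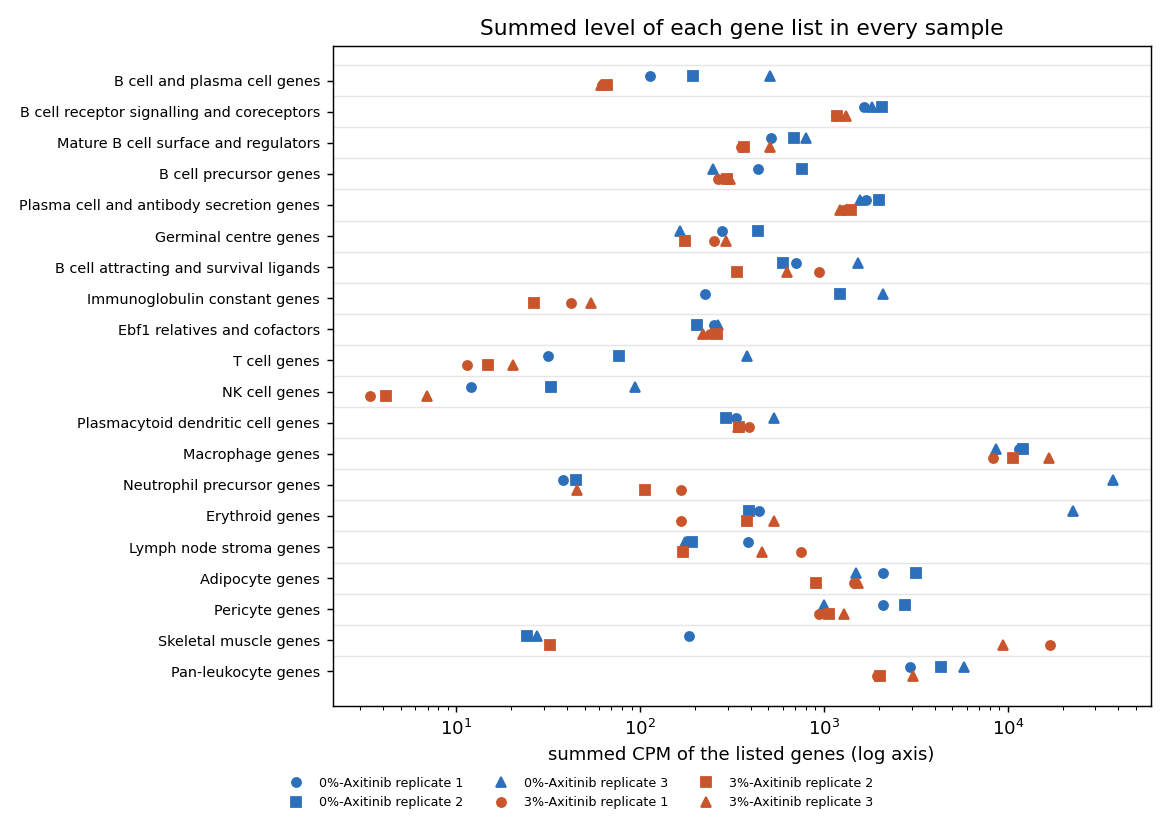
Summed CPM of each gene list in each of the 6 samples on a log axis. The 0%-Axitinib replicate 3 sample stands out for neutrophil precursor genes (37533 CPM) and erythroid genes (22527 CPM).

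Across the 6 samples and among genes with a mean of at least 1 CPM, the profile of H2-Ob was the nearest to the members' mean profile (Ebf1 left out), by a root mean square difference of centred log2 CPM of 0.287. It was followed by the Fc epsilon receptor gene Ms4a2 (0.442), Grap2 (0.448), Gimap3 (0.449), Eomes (0.451), Cd7 (0.456), Trpm2 (0.469), Cxcr6 (0.491), Ikzf3 (0.497) and Lck (0.508). Among the members, Blk (0.474) and Ms4a1 (0.591) lay nearest to that mean profile. Cd22 (1.81), Jchain (2.01) and Ebf1 (2.31) lay farthest from it. Jchain was already high in 0%-Axitinib replicate 2, and for Cd22 and Ebf1 replicate 3 was not the highest control.

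By position (GENCODE, GRCm38) the genes are scattered (Mzb1 is not reported here), at chr7:24897381-24902197 for Cd79a, chr11:106311341-106314762 for Cd79b, chr19:11249675-11266241 for Ms4a1, chr7:30865402-30880342 for Cd22, chr14:63372836-63417037 for Blk, chr4:44524757-44710487 for Pax5, chr11:44617317-45008091 for Ebf1 and chr5:88519809-88527891 for Jchain. Cd79a and Cd22 share chromosome 7, and Cd79b and Ebf1 share chromosome 11, where Cd79b was lower and Ebf1 was not. Ms4a1 lies wholly within the span of the antisense gene 4930526L06Rik, which had at most 1 count in any sample.

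The sequence before the annotated start was searched in the 5 of 9 members that the RefSeq table holds (build GRCm38.p6), 250 bases each on both strands, as a description. Motifs were the octamer ATGCAAAT, found in 1.60% of 32851 upstream regions of that length, an EBF motif CCCNNGGG (11.8%), the E-box CAGGTG (17.2%), an Ets motif GGAAGT (19.7%) and a PU.1 motif GAGGAA (23.3%). Cd79a held the Ets letters 54, the PU.1 letters 140 and the E-box 154 bases before its start, and Cd22 held the EBF letters 48 and the E-box 245 bases before its start. Ebf1, the member that was not lower, has 2 annotated starts in that table, and held the Ets letters 56 and the PU.1 letters 130 bases before 1 of them and none of the motifs before the other. Jchain and Pax5 held none of the motifs in their 250 bases. The stretches outside annotated exons are shown for these members, which were lower without 0%-Axitinib replicate 3 as well, capitals marking motif matches (those within exons are not shown), at chr7:24897247-24897380 (plus strand) for Cd79a, chr7:30879029-30879176 (minus strand) for Cd22, whose RefSeq start lies inside the GENCODE span given above, as that of Cd79a does, and chr5:88527898-88528147 (minus strand) for Jchain.
Cd79a: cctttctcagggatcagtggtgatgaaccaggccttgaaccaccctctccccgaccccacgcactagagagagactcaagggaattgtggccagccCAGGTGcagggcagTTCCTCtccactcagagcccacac
Cd22: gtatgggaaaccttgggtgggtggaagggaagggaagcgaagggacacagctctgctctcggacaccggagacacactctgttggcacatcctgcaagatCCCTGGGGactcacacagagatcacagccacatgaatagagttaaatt
Jchain: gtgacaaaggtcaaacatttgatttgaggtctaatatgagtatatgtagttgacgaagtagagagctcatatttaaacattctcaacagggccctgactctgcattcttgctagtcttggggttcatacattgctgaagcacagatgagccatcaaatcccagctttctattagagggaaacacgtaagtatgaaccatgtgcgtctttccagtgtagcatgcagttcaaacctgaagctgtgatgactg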

How the data were processed

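Mouse RNA from 6 samples was read as the raw read counts per gene that the authors deposited; per the processing notes of the authors, reads were filtered with fastp and mapped with STAR 2.5.2b to mm10. Between 3.84% and 48.4% of reads mapped nowhere, and the 4 summary lines of reads on no gene were left out of library sizes. The strand setting of the counting is not stated. Of 48440 genes, 21617 had no read and 15257 passed edgeR's filterByExpr (minimum count 10, minimum total 15). edgeR 4.0.16 (TMM, quasi-likelihood test) in R 4.3.3 compared 3%-Axitinib with 0%-Axitinib, with Benjamini-Hochberg adjustment over all genes tested; the fit was tested on simulated data. Alternatives were RLE and total-count scaling, DESeq2 1.42.0, limma 3.58.1 (voom), other filters, a replicate block and leaving out each sample. Counting intervals are exact, at 95%. Each SE of a log2 fold change is the size of that change divided by the square root of the F statistic of the edgeR test. The 95% interval of a log2 fold change comes from that SE and takes in the spread between samples. For genes near 0 counts such a symmetric SE is rough. RPKM used GENCODE exon lengths. Named were all members and, from each further list, genes among its most abundant and the 3 with the lowest p (not all are printed), plus defining markers at 3 counts or fewer in all samples; Ptprc served as leukocyte reference. The precursor genes Rag1, Rag2, Dntt, Igll1 and Il7r were named after their values were seen. Members and lists were chosen with earlier results of these data known.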

Additional observations from a re-analysis of the deposited data

Results flagged for a closer look

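Reads that mapped nowhere, which no comparison used, made up a median of 29.2% of all reads in the 3%-Axitinib samples, above the level in every control sample (highest 14.9%, in 0%-Axitinib replicate 3).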

How the results depend on the processing

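Genes passing an adjusted p of 0.05 numbered 1 with edgeR, 1960 with DESeq2, 2 with limma-voom, 15 without a filter and 2 with a replicate block, and ranged from 0 to 1252 when each sample was left out in turn (1252 without 0%-Axitinib replicate 3, 58 without 3%-Axitinib replicate 2, 0 without each of the others, where 2417 to 3513 genes passed 0.05 unadjusted). Genes lower by the criterion ranged from 1308 to 2148 in leave-one-out fits and from 1308 to 2533 over all alternatives. Members lower by the criterion, 7 in the reported fit, were 3 with limma-voom, 1 of 2 tested when every sample had to hold at least 10 counts (1570 of all 13035 genes there), and 4 (without 3%-Axitinib replicate 3) to 7 in leave-one-out fits. They were 5 with the replicate block (1354 of all 15257 genes), 5 with DESeq2 (1961) and 8 of 9 without a filter (2533 of all 26823). With the block, Cd79a (-3.86) and Cd79b (-2.70) were no longer past the p threshold (0.0515 and 0.112). The members' median log2 fold change of -5.09 was -0.59 with at least 10 counts in every sample, where fewer members were tested, and -5.60 to -2.29 in leave-one-out fits. The replicate block pairs samples by number, which the labels do not call pairs. Same-number correlations of deviations from the group means were 0.18, -0.12 and -0.17. With 3 samples per group such deviations are bound to each other, so these values cannot decide whether samples were paired. Ebf1 ranged from -0.057 without 0%-Axitinib replicate 2, a reversal, to 0.42 without 0%-Axitinib replicate 1. Over single members, 84 alternatives kept direction and side of the threshold, 11 lost the call and 1 reversed. DESeq2 gave no p for 2 members, Cd79a and Blk. Some of these settings tested fewer genes or samples, and the causes of the shifts were not tested.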
